A study of Mus musculus with 3 samples.

Results

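The insulin-like growth factor (IGF) ligands, their receptors and their binding proteins were followed through the cell classes of the mouse ventricle under pressure load. The genes were the 9 whose symbols are Igf1, Igf2, Igf1r, Igf2r, Igfbp3, Igfbp4, Igfbp5, Igfbp6 and Igfbp7, of 29994 gene symbols in all. They were taken by name and not by a cutoff on measured values, but the list was set with earlier results of these data known. The study made 1 droplet library (10x Genomics) per group from the pooled ventricles of 3 C57B6 mice, and its title places it in a search for drugs against cardiac fibrosis. The Sham group received vehicle, the TAC group had transverse aortic constriction and received vehicle, and the TAC+ART group had the constriction and received artesunate. TAC narrows the aorta so that the left ventricle pumps against a raised pressure, and artesunate is an antimalarial drug of the artemisinin family. All 3 groups shared strain and tissue, and the tissue had been frozen.

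IGF1 and IGF2 are secreted peptides that bind the receptor tyrosine kinase IGF1R and, through IRS proteins, PI3 kinase and AKT, promote growth and survival, with growth of heart muscle cells among the known effects. IGF2R, the cation-independent mannose-6-phosphate receptor, takes up IGF2 and sends it to lysosomes. The classical binding proteins IGFBP3 to IGFBP6 hold IGFs outside the cell and can limit or prolong their action, while IGFBP7 binds IGFs weakly and is deposited in vessel walls and matrix.

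The libraries held 3752 to 7413 barcodes and 17710689 to 37658150 UMIs (counted RNA molecules), with medians of 4310 to 4811 UMIs per barcode. The sources used here leave unstated whether the droplets took in nuclei or whole cells; each barcode is called a cell. Between 20 and 27 barcode sequences were shared by each pair of libraries. After filtering, 17089 cells formed 28 clusters, and 16310 cells fell in the 7 classes with at least 50 cells in every library. These were endothelial-, fibroblast-, macrophage-, pericyte-, cardiomyocyte-, endocardial- and lymphatic endothelial-like cells. Every marker of a class was detected in that class in all 3 libraries, but the same markers had named the clusters. All fibroblast, endothelial and cardiomyocyte markers were also detected in each of the 7 classes, so detection alone does not tell classes apart. Fibroblast-like cells lay mainly in cluster 5 in Sham, cluster 2 in TAC and cluster 4 in TAC+ART, and macrophage-like cells mainly in clusters 7, 6 and 7. Among cardiomyocyte-like clusters, cluster 14 held 216, 50 and 166 cells of Sham, TAC and TAC+ART, and cluster 17 held 40, 116 and 91. Cluster 23, macrophage-like, held 51 Sham cells and no others. The summed endothelial markers in macrophage-like cells were 963, 338 and 403 CPM in the 3 libraries, and without cluster 23 the Sham sum was 462 CPM. Macrophage-like values that this cluster moves are given with and without it.

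Values given in threes follow the order Sham, TAC, TAC+ART. A level is the gene's share of the UMIs of its class in that library, scaled as CPM (counts per 1e6 UMIs), and a ratio is the log2 ratio of 2 levels with 0.5 UMIs added to each sum. The ratios are named TAC/Sham, ART/TAC and ART/Sham, where ART is the TAC+ART library. Each group was 1 library, so there was no test, and the exact 95% intervals in parentheses cover counting error only, not differences between hearts or preparations. A gene was measured in a comparison where both libraries together held at least 100 of its UMIs in that class, and it was past the threshold at 1.5-fold in either direction. TAC/Sham and ART/TAC share the TAC library, so opposite signs in the pair are not independent of each other. CPM values of different genes are not compared, since they are not per length.

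Fibroblast- and macrophage-like cells were the main sources of Igf1 UMIs, while the receptor Igf1r was found in all classes. Fibroblast-like cells held 45.4%, 46.8% and 41.1% of the libraries' Igf1 UMIs, and macrophage-like cells held 39.2%, 38.0% and 44.1%. The binding proteins had different main sources. Igfbp3 UMIs lay mostly in endothelial-like cells (58.2%, 68.1% and 58.6%), and fibroblast-like cells held most Igfbp4 UMIs (58.4%, 51.1% and 54.4%) and about as large a share of Igfbp6 UMIs (48.5%, 59.9% and 51.4%). The largest parts of Igfbp5 UMIs came from 2 smaller classes, endocardial-like (33.1%, 31.5% and 38.3%) and lymphatic endothelial-like cells (19.9%, 28.1% and 19.4%). For Igfbp7 they were fibroblast-like (38.2%, 50.8% and 50.5%) and endothelial-like (39.0%, 34.7% and 31.0%). These shares move with the number of cells of each class in a library as well as with the level per cell.

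**Figure D1:**
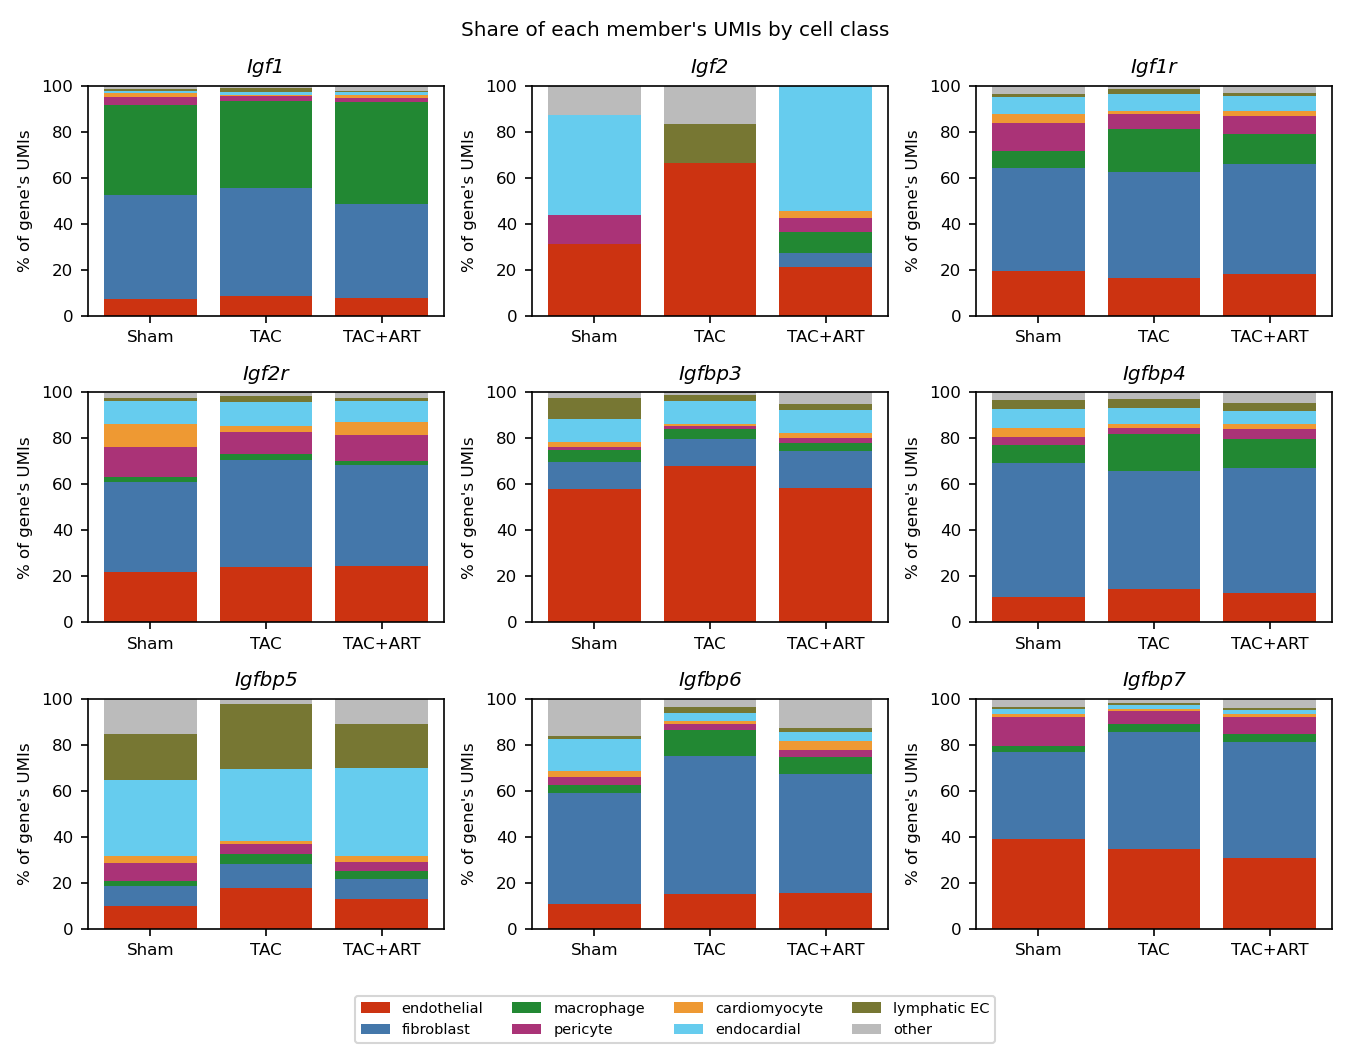
Share (%) of each gene's UMIs found in each cell class, 1 stacked bar per library; "other" joins the smaller classes and unnamed clusters. Igf1 bars are mainly fibroblast- and macrophage-like, Igfbp3 bars mainly endothelial-like, and the Igf2 bars rest on 16, 6 and 33 UMIs.

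The ligand gene Igf1 (chromosome 10, 87858265 to 87937042, plus strand, GRCm38) was highest in macrophage-like cells, at 469 (437 to 504), 283 (270.2 to 295) and 454 (435 to 474) CPM. TAC was the low library there, and the Sham and TAC+ART intervals overlapped. The TAC/Sham ratio was -0.73 (-0.85 to -0.61), ART/TAC was 0.69 (0.60 to 0.77) and ART/Sham was -0.048 (-0.17 to 0.073). The antisense gene Igf1os overlaps Igf1 on the opposite strand and had 21.9, 6.33 and 22.4 CPM in these cells. Whether counting used strand is not stated. The share of macrophage-like cells with an Igf1 UMI, after thinning every cell to 1000 UMIs, was 29.4%, 19.9% and 30.9%, against 61.3%, 52.5% and 63.2% before thinning. Cardiomyocyte-like cells had shares of 1.90%, 3.38% and 3.73%, the lowest of the 7 classes in Sham and TAC+ART and near the lowest in TAC. The part that free RNA in droplets has in these shares was not measured. Median depths were 4276, 4589 and 4240 UMIs in macrophage-like and 7494, 5191 and 6052 in cardiomyocyte-like cells. Thinning left out 1 cell of the 7 classes.

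In fibroblast-like cells the TAC level of Igf1 was above that of Sham, at 159.7 (149 to 171), 217 (208 to 226) and 195 (187 to 204) CPM, with no overlap between the Sham interval and the others. The TAC/Sham ratio was 0.44 (0.33 to 0.55) and ART/TAC was -0.15 (-0.24 to -0.063), both under 1.5-fold. Thinned shares of cells with an Igf1 UMI were 12.2%, 17.4% and 15.5%. Endothelial-like cells stood at 37.8, 49.8 and 50.2 CPM, with thinned shares of 3.02%, 4.89% and 4.22%. Within that class, cluster 1 had 63.1, 76.7 and 88.5 CPM and cluster 0 had 16.0, 29.9 and 28.5 CPM. Levels were 40.2, 58.1 and 46.5 CPM in pericyte-like, 22.7, 32.8 and 37.1 in endocardial-like, 33.3, 59.6 and 41.6 in lymphatic endothelial-like and 14.6, 25.1 and 21.8 in cardiomyocyte-like cells. The pericyte-like TAC/Sham ratio of 0.53 became 0.091 with cells assigned by their own markers instead of clusters.

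Macrophage-like clusters differed in Igf1. Cluster 7, with 218, 18 and 716 cells, had 608, 513 and 517 CPM. Cluster 6, with 4, 952 and 24 cells, had 161, 308 and 423 CPM, the Sham value resting on very few cells. Cluster 10, with 81, 475 and 307 cells, had 250.2, 195 and 264 CPM. The cluster with the highest Igf1 thus held few of the TAC cells. Within cluster 10 TAC/Sham was -0.37 (-0.74 to 0.039), an interval that includes 0, and ART/TAC was 0.44 (0.21 to 0.67). Without the Sham-only cluster 23 (cluster level 252 CPM), the Sham class level was 528 (489 to 569) CPM and TAC/Sham was -0.90 (-1.03 to -0.77). ART/Sham was then -0.22 (-0.34 to -0.090), under 1.5-fold but with an interval that excludes 0.

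F13a1 and Cd163 are known from resident-type macrophages. Macrophage-like cells with a UMI of either gene made up 94.9%, 91.3% and 93.7% of the class and had 464, 288 and 466 CPM of Igf1, with TAC the lowest library as in the class. Those with neither numbered 18, 126 and 66 cells, with 672, 194 and 197 CPM. Their ART/TAC ratio was 0.032 (-0.55 to 0.58).

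Postn, a matricellular gene of activated fibroblasts, had a UMI in 7.81%, 83.9% and 48.7% of the fibroblast-like class. Igf1 in cells with a Postn UMI was 144, 220.5 and 204 CPM, and in cells without one 161, 194 and 186 CPM. TAC was above Sham on both sides of that split, with TAC/Sham of 0.61 (0.28 to 0.97) with Postn and 0.27 (0.073 to 0.46) without. Each of the fibroblast-like clusters 2, 4, 5 and 8 also had a higher Igf1 level in TAC than in Sham, although cluster 5 had 14 TAC cells. Cluster 8, with 170, 321 and 424 cells, had a TAC/Sham ratio of 0.68 (0.38 to 0.99) and an ART/TAC ratio of 0.23 (0.044 to 0.42), the latter opposite in sign to the class.

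**Figure D2:**
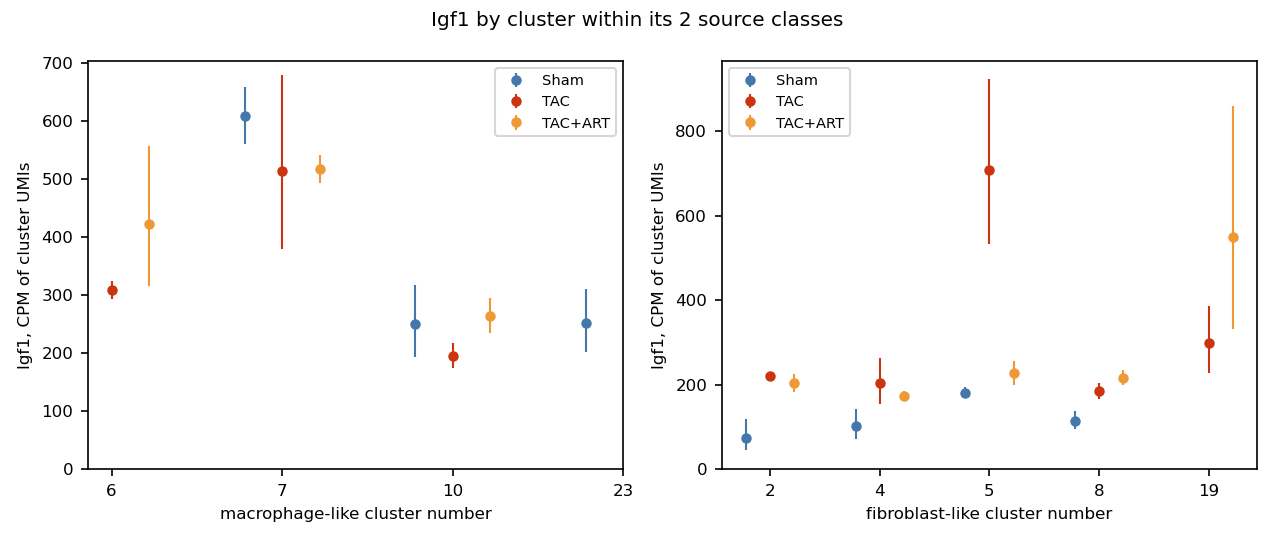
Igf1 level (CPM of cluster UMIs) in macrophage-like and fibroblast-like clusters with at least 10 cells in a library; points are libraries and bars exact 95% counting intervals. Macrophage-like cluster 7 lies above 500 CPM in each library, and TAC lies above Sham in fibroblast-like clusters 2, 4, 5 and 8.

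The other ligand gene, Igf2 (chromosome 7, 142650766 to 142666816, minus strand), a mainly fetal growth factor, had 16, 6 and 33 UMIs in the whole libraries and was measured in none of the 7 classes. Endocardial-like cells held 7, 0 and 18 of these UMIs. With the 7 Sham and 18 TAC+ART UMIs taken as they stand and the limit of 3 UMIs that a count of 0 allows, the Sham level was at least 4.86-fold and the TAC+ART level at least 7.55-fold higher than that of TAC, at 6.92 and 10.8 CPM against a limit of 1.42. With the counting error of both libraries, the TAC/Sham ratio was at most -1.59 and ART/TAC at least 2.47. These Igf2 values were not recomputed with cells assigned by their own markers. Endothelial-like cells held 5, 4 and 7 Igf2 UMIs, of which 3, 4 and 2 lay in cluster 13, whose leading genes include the arterial genes Sema3g and Gja5. Pericyte-like cells held 2, 0 and 2 UMIs, and the other 4 classes had at most 3 in any library.

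The receptor gene Igf1r (chromosome 7, 67952827 to 68233668, plus strand) was past 1.5-fold in none of the 7 classes in any of the 3 comparisons. In fibroblast-like cells, which had the highest level in each library, it was 667 (646 to 688), 696 (680.4 to 711) and 741 (724 to 758) CPM. Pericyte-like cells had 625, 589 and 574 CPM and endocardial-like cells 615, 603 and 623 CPM, and the intervals of these 2 classes overlapped in all 3 libraries. The fibroblast- and pericyte-like intervals overlapped in Sham only. Macrophage-like cells stood at 397, 455 and 447 CPM and lymphatic endothelial-like cells at 226, 234 and 247 CPM.

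Endothelial-like cells had the lowest of the TAC/Sham ratios of Igf1r, with 436 (415 to 458), 315 (304 to 327) and 391 (377 to 405) CPM. TAC was the lowest library and no intervals overlapped. TAC/Sham was -0.47 (-0.56 to -0.38) and ART/TAC 0.31 (0.24 to 0.39), both under 1.5-fold. Cardiomyocyte-like cells, a known target of IGF1, had the lowest class level in every library, at 148 (133 to 165), 193 (170.1 to 218) and 169 (153 to 187) CPM. In TAC that level overlapped the level of lymphatic endothelial-like cells. TAC/Sham in cardiomyocyte-like cells was 0.38 (0.14 to 0.62) and ART/TAC -0.19 (-0.42 to 0.046). With cells assigned by their own markers instead of clusters these became -0.047 and 0.083, so no direction is read there.

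The receptor gene Igf2r (chromosome 17, 12682406 to 12769664, minus strand) overlaps Airn, an antisense RNA from the opposite strand, and the sources used here do not say if counting used strand. Airn had between 2.11 and 7.95 times as many UMIs as Igf2r in the 21 sums over 7 classes and 3 libraries (median 5.19). Across those sums the Pearson correlation of log2(CPM + 1) was 0.98, and Airn was the gene most like Igf2r; the points share libraries, depth and classes. Igf2r values are therefore uncertain. In endocardial-like cells the directions differed, with TAC/Sham of 0.12 for Airn and -0.39 for Igf2r, and ART/TAC of -0.42 and 0.16. Igf2r levels were 486, 372 and 416 CPM in endocardial-like cells and 395, 396 and 408 in pericyte-like cells. Levels were 338, 320.5 and 329 CPM in fibroblast-like cells and 279, 206 and 254 in endothelial-like cells. Cardiomyocyte-like cells had 213, 163 and 192 CPM and lymphatic endothelial-like cells 167, 149.97 and 133. Macrophage-like cells were the lowest, at 54.7, 28.2 and 27.6 CPM. Their TAC/Sham ratio of -0.96 (-1.32 to -0.58) rested on cluster 23, which held 67 of the 90 Sham UMIs, and it was 0.64 (0.042 to 1.36) without that cluster.

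**Figure D3:**
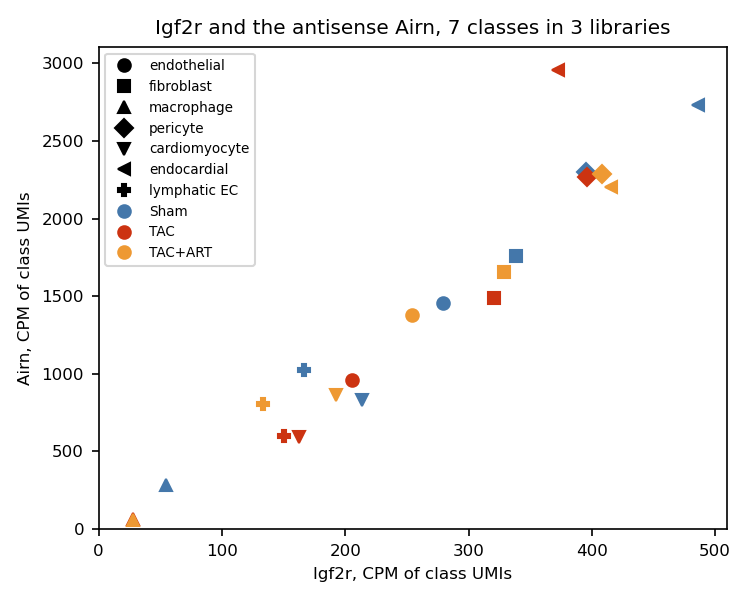
Igf2r and antisense Airn levels, both in CPM of class UMIs, with 1 point per class and library. Points with more Igf2r mostly have more Airn. Endocardial-like TAC is an exception, with less Igf2r than Sham (372 against 486 CPM) but more Airn (2960 against 2732 CPM). Airn UMIs exceed Igf2r UMIs at every point.

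Of the 9 genes, Igfbp7 was the one more than 1.5-fold higher in TAC than in Sham in all 7 classes. It encodes a secreted matrix and vessel-wall protein (chromosome 5, 77349240 to 77408041, minus strand; Polr2b and Gm34648 overlap it on the opposite strand). In fibroblast-like cells the level was 384 (368 to 400.5), 1384 (1363 to 1406) and 853 (836 to 872) CPM. No intervals overlapped, and TAC+ART lay between Sham and TAC. TAC/Sham was 1.85 (1.79 to 1.92), ART/TAC -0.70 (-0.74 to -0.66) and ART/Sham 1.15 (1.08 to 1.22). Thinned shares of fibroblast-like cells with an Igfbp7 UMI were 26.9%, 65.6% and 50%, against 63.0%, 96.9% and 89.9% before thinning.

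Vascular classes had the same order of libraries. Endothelial-like cells had 578, 1179 and 718 CPM of Igfbp7, with TAC/Sham of 1.03 (0.96 to 1.09) and ART/TAC of -0.72 (-0.76 to -0.67). Pericyte-like cells had 430.1, 943 and 578 CPM, with ratios of 1.13 (1.005 to 1.26) and -0.71 (-0.81 to -0.60). Endocardial-like cells had 126, 256 and 195 CPM and lymphatic endothelial-like cells 103, 232 and 174 CPM. TAC was the highest library in each of these classes, and ART/TAC was past 1.5-fold in 4 of 7 classes, the fibroblast-, endothelial-, pericyte- and cardiomyocyte-like cells.

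Cardiomyocyte-like cells had 33.9, 182 and 100.2 CPM of Igfbp7, with thinned shares of 3.16%, 16.5% and 10.1%, and macrophage-like cells 82.0, 158 and 128 CPM, with thinned shares of 6.21%, 16.5% and 13.1%. Shares of cardiomyocyte-like cells were the lowest of the 7 classes in each library, and those of macrophage-like cells were near them. Without cluster 23 the macrophage-like Sham level was 28.5 CPM and TAC/Sham 2.45 (2.001 to 2.99), in place of 0.94 (0.69 to 1.22). The macrophage-like ART/TAC ratio of -0.30 lay between -0.39 and 0.04 over the alternative settings.

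Fibroblast markers were also found outside fibroblast-like cells. The 10 markers summed to 680.0, 2325 and 2111 CPM in cardiomyocyte-like, 1117, 2772 and 3348 in endothelial-like, 1497, 2472 and 2871 in macrophage-like and 2081, 3135 and 3696 in pericyte-like cells. None of the 10 was at 0 in any of these sums. Sums were higher in both TAC libraries than in Sham. The sums were also 1457, 2714 and 3361 CPM in endocardial-like and 1071, 2252 and 2673 in lymphatic endothelial-like cells. From TAC to TAC+ART the sum and Igfbp7 were both lower in cardiomyocyte-like cells. In the endothelial-, macrophage-, pericyte-, endocardial- and lymphatic endothelial-like cells the sum was higher and Igfbp7 lower. In fibroblast-like cells the same markers summed to 10209, 11413 and 13831 CPM. There too the sum was higher and Igfbp7 lower in TAC+ART than in TAC. The part that fibroblast RNA has in the levels of Igfbp4, Igfbp6 and Igfbp7 in the other classes was not tested.

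The Igfbp7 difference was present on both sides of the Postn split. Fibroblast-like cells with Postn had 489, 1422 and 929.9 CPM, and those without had 373, 1156 and 772 CPM. TAC/Sham was 1.54 (1.36 to 1.73) with and 1.63 (1.54 to 1.72) without Postn, and ART/TAC was -0.61 and -0.58. In clusters 2, 4 and 8 the TAC/Sham ratios were 1.23, 1.24 and 1.55. The ART/TAC ratios within those clusters were -0.27, -0.20 and -0.45, smaller in size than the class value. In endothelial-like clusters 0 and 13 TAC/Sham was 0.89 and 1.48.

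Igfbp4, Igfbp6 and Igfbp7 were each past 1.5-fold higher in TAC in fibroblast-, endothelial-, macrophage- and pericyte-like cells, so the sequences before their starts are shown. All 9 genes matched the RefSeq promoter table (GRCm38.p6). The 250 bases before each RefSeq start follow, 5′ to 3′ on the gene's strand, for Igfbp7 (chr5:77408046-77408295, minus), Igfbp6 (chr15:102143936-102144185, plus) and Igfbp4 (chr11:99040994-99041243, plus), with capitals for motif matches.
Igfbp7: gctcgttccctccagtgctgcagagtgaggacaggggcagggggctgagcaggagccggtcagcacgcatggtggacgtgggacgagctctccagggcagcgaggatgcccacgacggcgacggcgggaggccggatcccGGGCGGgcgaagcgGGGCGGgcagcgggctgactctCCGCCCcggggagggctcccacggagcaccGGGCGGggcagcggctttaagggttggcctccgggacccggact
Igfbp6: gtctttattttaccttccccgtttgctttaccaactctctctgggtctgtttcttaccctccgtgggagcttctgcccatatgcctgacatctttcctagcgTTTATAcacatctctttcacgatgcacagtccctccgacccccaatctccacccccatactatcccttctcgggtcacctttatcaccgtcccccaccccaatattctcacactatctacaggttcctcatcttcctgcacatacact
Igfbp4: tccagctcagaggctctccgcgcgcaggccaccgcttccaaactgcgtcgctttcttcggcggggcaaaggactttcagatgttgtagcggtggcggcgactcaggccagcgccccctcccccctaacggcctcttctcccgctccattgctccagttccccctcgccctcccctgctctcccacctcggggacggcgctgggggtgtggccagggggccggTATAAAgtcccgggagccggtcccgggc

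Motifs were searched on both strands, and none of these 3 windows held matches to more than 1 of them, so matches of different motifs did not overlap here. The Igfbp7 window held 4 matches to the GC box motif GGGCGG. At least 1 match was held by 32.7% of 32851 RefSeq windows of the same length, which were not matched for GC content. The Igfbp6 and Igfbp4 windows each held 1 match to the TATA box motif TATAAA, held by 12.4% of windows. The Igfbp4 match was on the gene's strand, near the end of the window next to the start. The Igfbp6 match was on the opposite strand (TTTATA) and farther from the start. None of the 3 windows held the AP-1 motif TGANTCA (6.75% of windows). The SMAD motif CAGACA (17.1%) was likewise not matched. Nor was the cyclic AMP response element TGACGTCA (1.55%). GC content was 74.0% for Igfbp7, 49.6% for Igfbp6 and 69.2% for Igfbp4, against a median of 52.4% over windows. These are descriptions of the letters and not of binding.

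Igfbp6, which encodes a binding protein with a preference for IGF2 (chromosome 15, 102144362 to 102149511, plus strand), stood at 57.2 (51.1 to 63.8), 155 (148 to 163) and 110.1 (104 to 117) CPM in fibroblast-like cells. No intervals overlapped, and TAC+ART lay between the other libraries. TAC/Sham was 1.44 (1.27 to 1.62) and ART/TAC -0.496 (-0.61 to -0.39). Fibroblast-like cluster 19, led by Col1a1, Ltbp2, Cilp and Postn, had 743 and 579.6 CPM in its 99 and 17 TAC and TAC+ART cells. Endothelial-, pericyte- and macrophage-like cells had TAC/Sham ratios of 1.40, 1.58 and 1.83 at levels of at most 49.5 CPM, beside the fibroblast marker sums given above. Levels were 20.5, 53.8 and 42.8 CPM in lymphatic endothelial-like cells (from 8, 75 and 36 UMIs) and 7.78, 28.9 and 36.6 CPM in cardiomyocyte-like cells (from 17, 38 and 84 UMIs). Endocardial-like cells had the opposite sign, at 92.0, 47.5 and 53.8 CPM and TAC/Sham of -0.95 (-1.38 to -0.53), which became 0.22 with cells assigned by their own markers.

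Igfbp4, whose protein holds IGFs back until the protease PAPP-A cleaves it (chromosome 11, 99041244 to 99054392, plus strand), was higher by value in TAC than in Sham in 7 of 7 classes. In fibroblast-like cells it was 111 (102 to 119.9), 167 (159 to 174) and 193 (184 to 201) CPM. TAC+ART was the highest library there, unlike for Igfbp6 and Igfbp7. TAC/Sham of 0.59 (0.46 to 0.72) lay just past the 1.5-fold threshold, and ART/TAC was 0.21 (0.12 to 0.30). Endothelial-like cells had 31.0, 60.0 and 61.9 CPM, macrophage-like cells 49.2, 84.4 and 97.2 and pericyte-like cells 24.3, 53.7 and 71.0. Cardiomyocyte-like cells had 18.8, 50.2 and 33.5 CPM and endocardial-like cells 87.0, 117 and 124. Lymphatic endothelial-like cells had 103, 105 and 147 CPM, with TAC/Sham of 0.028 (-0.47 to 0.58), an interval that includes 0.

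Igfbp5, which encodes a matrix-binding member of the family (chromosome 1, 72857932 to 72874884, minus strand), was highest, among the 7 compared classes, in lymphatic endothelial- and endocardial-like cells. Lymphatic endothelial-like cells had 1240.3, 1170.4 and 1440.5 CPM, with TAC/Sham of -0.085 (-0.23 to 0.066) and ART/TAC of 0.30 (0.19 to 0.41). Endocardial-like cells had 799 (745 to 856), 869 (829.8 to 909.9) and 1428 (1371 to 1487) CPM. TAC+ART stood apart from the other libraries there, with ART/TAC of 0.72 (0.63 to 0.80) and TAC/Sham of 0.12 (0.0013 to 0.24). With cells assigned by their own markers the endocardial ART/TAC ratio became 0.17, under 1.5-fold, TAC/Sham became -0.63, and ART/Sham changed sign, from 0.84 to -0.46. Endothelial-like cells had 64.4, 116 and 107 CPM and TAC/Sham of 0.85 (0.65 to 1.06), which became 0.17 with the marker assignment. Within the class, cluster 1 had 95.7, 215 and 186 CPM and TAC/Sham of 1.16 (0.92 to 1.42), and cluster 0 had 39.7, 36.7 and 56.3 CPM and TAC/Sham of -0.12 (-0.54 to 0.33), an interval that includes 0. Pericyte-like cells had 117, 135 and 110.5 CPM, cardiomyocyte-like cells 37.1, 53.2 and 67.5, fibroblast-like cells 37.1, 52.6 and 52.7 and macrophage-like cells 30.4, 39.1 and 50.2.

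Igfbp3, which encodes the main carrier of IGFs in blood (chromosome 11, 7206086 to 7213923, minus strand), stood at 34.4 (28.8 to 40.8), 72.3 (66.8 to 78.0) and 40.8 (36.3 to 45.6) CPM in endothelial-like cells. TAC was the high library, and the Sham and TAC+ART intervals overlapped. TAC/Sham was 1.07 (0.80 to 1.35), ART/TAC -0.83 (-1.03 to -0.63) and ART/Sham 0.24 (-0.056 to 0.55). Cluster 13, with the arterial genes Sema3g and Gja5 among its leading genes, had 97.4, 193 and 118 CPM, the same order of libraries. Endocardial-like cells had 21.8, 45.1 and 31.1 CPM, and their TAC/Sham ratio of 1.03 (0.37 to 1.79) became -0.85 with cells assigned by their own markers. Fibroblast-like cells had 4.63, 9.83 and 8.08 CPM. Lymphatic endothelial-like cells had 53.8, 15.8 and 14.3 CPM from 21, 22 and 12 UMIs, too few to count as measured. So were the 12, 43 and 19 UMIs in macrophage-like, 3, 12 and 10 in pericyte-like and 5, 9 and 13 in cardiomyocyte-like cells, with levels of 7.29, 6.18 and 4.01, 1.83, 6.58 and 4.70 and 2.29, 6.84 and 5.66 CPM.

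**Figure D4:**
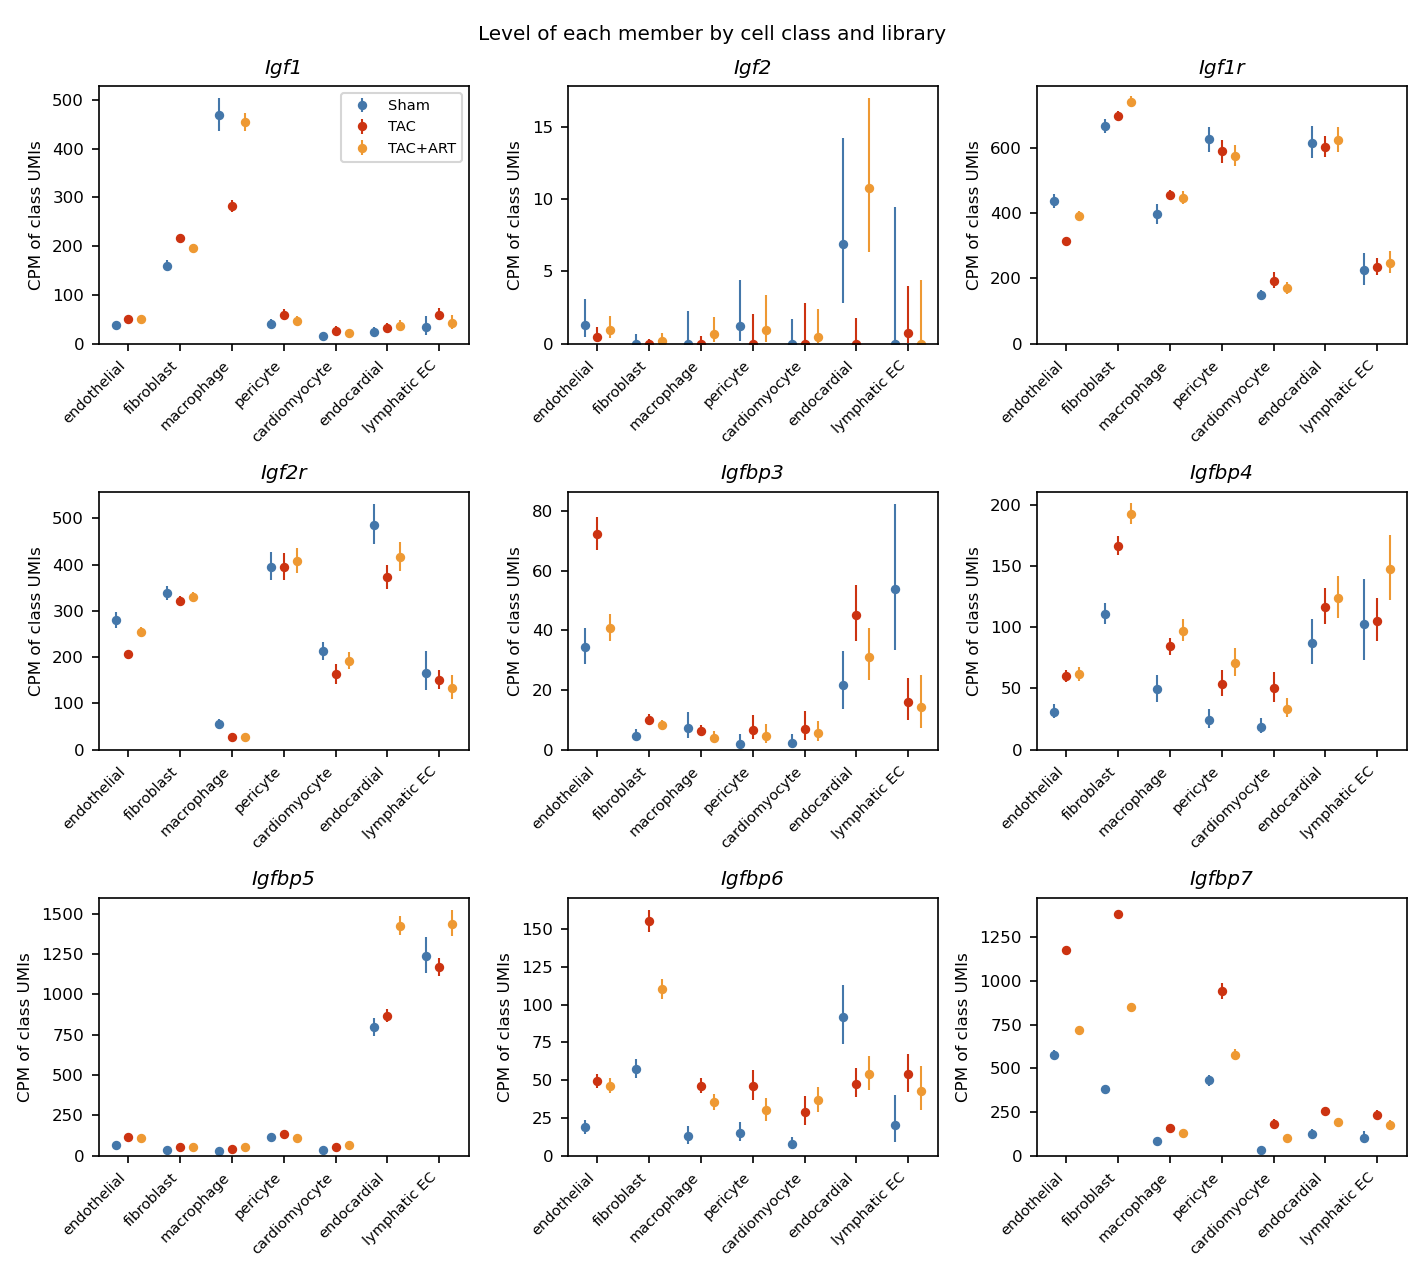
Level of each gene (CPM of class UMIs, axes that differ between panels) by cell class; points are the 3 libraries and bars exact 95% counting intervals. For Igfbp7 the TAC point is the highest in every class, and for Igf1 it is the lowest in macrophage-like cells.

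For TAC/Sham, members past 1.5-fold are counted here beside the share of all genes measured in the same class. Fibroblast-like cells had 4 of 8 higher (Igfbp3, Igfbp4, Igfbp6 and Igfbp7) against 16.3% of all genes, and 0 lower against 11.1%. Endothelial-like cells had 5 of 8 higher (Igfbp3, Igfbp4, Igfbp5, Igfbp6 and Igfbp7) against 11.2% of all genes, and 0 lower against 7.24%. The median ratio of the members was 0.55 in fibroblast-like and 0.90 in endothelial-like cells, where those of all genes were 0.032 and -0.038. Macrophage-like cells had 3 of 7 higher (Igfbp4, Igfbp6 and Igfbp7) against 11.4% of all genes, and 2 lower (Igf1 and Igf2r) against 10.3%. Without cluster 23 Igf2r is not lower there, as given above. Pericyte-like cells had 3 of 7 higher (Igfbp4, Igfbp6 and Igfbp7) against 9.91% of all genes, and 0 lower against 6.2%. Endocardial-like cells had 2 of 7 higher (Igfbp3 and Igfbp7) against 9.12% of all genes, and 1 lower (Igfbp6) against 7.35%. The endocardial-like Igfbp3 and Igfbp6 ratios changed sign with cells assigned by their own markers. All members past 1.5-fold higher were binding proteins. Cardiomyocyte-like cells had 2 of 5 higher (Igfbp4 and Igfbp7) against 21.3% of all genes, and 0 lower against 21.4%. Among cardiomyocyte-like cells with a UMI of Nppa, Igfbp4 TAC/Sham was 1.03 (-0.38 to 3.55), from 62 and 3 UMIs. Among those without one it was 0.027 (-2.07 to 1.35), from 4 and 38 UMIs, and both intervals include 0. The Igfbp7 ratios were 1.65 with and 2.16 without Nppa. Lymphatic endothelial-like cells had 1 of 5 higher (Igfbp7) against 12.2% of all genes, and 0 lower against 7.32%.

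For ART/TAC fewer members were past 1.5-fold. Fibroblast-like cells had 0 of 8 higher against 6.67% of all genes, and 1 lower (Igfbp7) against 6.53%. Endothelial-like cells had 0 of 8 higher against 4.65% of all genes, and 2 lower (Igfbp3 and Igfbp7) against 4.86%. Pericyte-like cells had 0 of 7 higher against 3.12% of all genes, and 2 lower (Igfbp6 and Igfbp7) against 3.67%. The lower members in these 3 classes were Igfbp3, Igfbp6 and Igfbp7, while median ratios of the members in fibroblast- and endothelial-like cells, at -0.074 and -0.044, were near those of all genes, at -0.049 and -0.023. In pericyte-like cells the median was -0.29 against -0.033 of all genes, in lymphatic endothelial-like cells -0.17 against -0.043, and in endocardial-like cells 0.12 against -0.0050. Macrophage-like cells had 1 of 7 higher (Igf1) against 5.01% of all genes, and 0 lower against 5.21%. Endocardial-like cells had 1 of 8 higher (Igfbp5) against 5.94% of all genes, and 0 lower against 5.09%. Cardiomyocyte-like cells had 0 of 6 higher against 10.5% of all genes, and 1 lower (Igfbp7) against 17.1%. Lymphatic endothelial-like cells had 0 of 7 higher against 4.35% of all genes, and 0 lower against 4.61%.

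For ART/Sham the members past 1.5-fold higher were again binding proteins. Fibroblast-like cells had 4 of 8 higher (Igfbp3, Igfbp4, Igfbp6 and Igfbp7) against 8.27% of all genes, and 0 lower against 4.34%. Endothelial-like cells had 3 of 8 higher (Igfbp4, Igfbp5 and Igfbp6) against 5.8% of all genes, and 0 lower against 2.42%. Macrophage-like cells had 4 of 7 higher (Igfbp4, Igfbp5, Igfbp6 and Igfbp7) against 6.68% of all genes, and 1 lower (Igf2r) against 7.75%. Igf1 in macrophage-like cells was not among them. Pericyte-like cells had 1 of 6 higher (Igfbp4) against 6.1% of all genes, and 0 lower against 3.2%. Cardiomyocyte-like cells had 4 of 6 higher (Igfbp4, Igfbp5, Igfbp6 and Igfbp7) against 9.56% of all genes, and 0 lower against 6.44%. Endocardial-like cells had 2 of 6 higher (Igfbp5 and Igfbp7) against 6.67% of all genes, and 1 lower (Igfbp6) against 3.58%. Lymphatic endothelial-like cells had 1 of 5 higher (Igfbp7) against 6.38% of all genes, and 0 lower against 3.79%. Some of these ratios changed sign under an alternative given below. They were Igf2r and Igfbp5 in macrophage-like, Igfbp5 and Igfbp6 in endocardial-like and Igfbp3 in fibroblast-like cells.

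**Figure D5:**
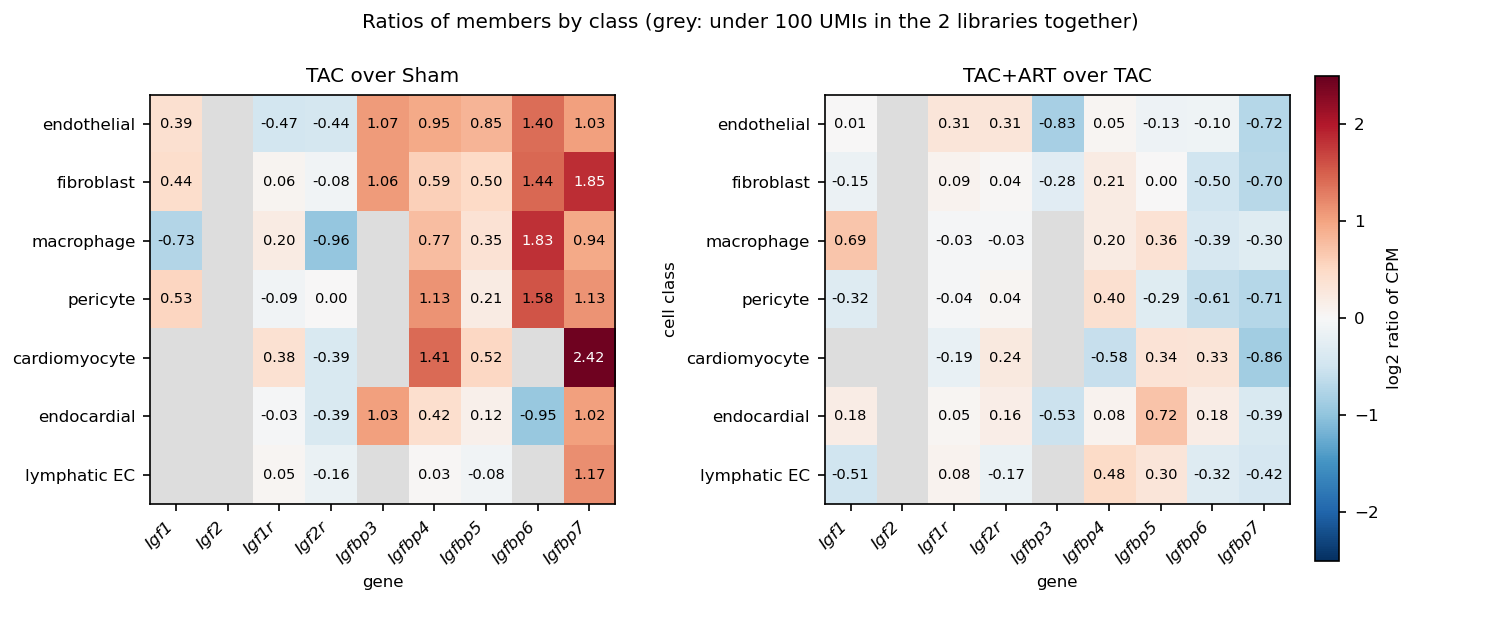
Log2 ratios of levels by class and gene for TAC over Sham (left) and TAC+ART over TAC (right), printed in each cell; grey cells held under 100 UMIs in both libraries together. The Igfbp7 values are positive in all 7 classes on the left and negative in all 7 on the right.

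Of 60 other genes of the IGF pathway listed, 58 were in the files (Igfbp1 and Irs4 were not matched). In fibroblast-like cells 49 were measured for TAC/Sham, with 2 past 1.5-fold higher and 7 lower, and a median of -0.12, beside 16.3% higher and 11.1% lower of all genes. These counts are near or under those shares, so nothing is read from the list as a whole. The lowest were Htra1, a secreted serine protease, at -1.41 (-1.68 to -1.14), and Pappa, the protease that cleaves IGFBP4, at -0.95 (-1.13 to -0.77). Pappa stood at 92.5, 47.9 and 36.0 CPM, the reverse order of Igfbp4 in these cells. The mTOR inhibitor gene Deptor was at -0.77, Foxo3, a transcription factor gene whose protein AKT restrains, at 0.60 and the kinase gene Gsk3a at 0.62. For ART/TAC, 1 of 49 was higher (Htra1, 0.89) and 1 lower, the metalloprotease gene Adam12 at -0.81, beside 6.67% and 6.53% of all genes.

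In macrophage-like cells 42 were measured, with 1 higher and 6 lower in TAC, beside 11.4% and 10.3% of all genes. Without cluster 23 there were 1 higher and 3 lower of 42. The growth hormone receptor gene Ghr stood at 266, 65.7 and 78.0 CPM, a TAC/Sham ratio of -2.02 (-2.21 to -1.82). Without cluster 23 the Sham level was 80.1 CPM and TAC/Sham -0.29 (-0.60 to 0.035), under 1.5-fold. The adaptor gene Grb10 was at -1.49 for TAC/Sham, which became 0.18 (-0.46 to 0.95) without that cluster, and at 0.67 for ART/TAC. Igf2bp3, an RNA-binding protein gene, was at -0.72 (-0.91 without the cluster), and Eif4ebp1, whose protein restrains translation until mTOR phosphorylates it, at 0.70 (0.67 without it). For ART/TAC 2 of 43 were higher, Grb10 and the phosphatase gene Phlpp2 (0.63), and 0 lower, beside 5.01% and 5.21% of all genes.

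In endothelial-like cells 3 of 47 were higher and 4 lower in TAC, beside 11.2% and 7.24% of all genes. The insulin receptor gene Insr stood at 238, 442 and 251 CPM, with ratios of 0.89 and -0.82, opposite in sign to those of Igf1r in the same cells. Adam12 had ratios of 1.38 and -0.90, and Stc1, which encodes the hormone stanniocalcin-1, was at 1.25 for TAC/Sham. Pik3cd (-1.21), Stat5a (-0.75) and Grb14 (-0.70) were the lowest. For ART/TAC 1 of 47 was higher (Pik3cd, 1.003) and 2 lower (Insr and Adam12), beside 4.65% and 4.86% of all genes.

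In cardiomyocyte-like cells 1 of 33 was higher and 9 lower in TAC, beside 21.3% and 21.4% of all genes. The count lower in TAC is near its share. For ART/TAC 10 of 32 were higher and 1 lower, beside 10.5% and 17.1% of all genes. The adaptor genes Gab1 and Grb14 were at -1.54 and -1.30 and Foxo3 at -1.29 for TAC/Sham. For ART/TAC, Foxo3 was at 1.34, Grb14 at 1.01 and Socs2, a feedback inhibitor gene of growth hormone signalling, at 0.92. The docking protein gene Irs1 had the opposite signs, at 60.4, 110.2 and 60.6 CPM and ratios of 0.87 and -0.86. These pathway ratios were not recomputed with cells assigned by their own markers. TMM scaling shifted all TAC/Sham ratios of this class by 0.135, the one shift over 0.1 among the classes and comparisons.

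The genes with the most similar pattern over the 21 sums (Pearson r of the first in parentheses) were Apbb1ip (0.95), Clcn5 and Ifi207 for Igf1 and Sgce (0.96), Tacc1 and Kcnip3 for Igf1r. They were Npr1 (0.93), Slc9a3r2 and Cdh5 for Igfbp3, Tmed3 (0.89), Cebpd and Prelp for Igfbp4 and Gpm6a (0.97), Wdr17 and Pkhd1l1 for Igfbp5. Igfbp6 was most like Mfap5 (0.94), Bgn and P4hb, and Igfbp7 most like Sparc (0.95), Sparcl1 and Map6. The points share libraries, depth and classes, so these values are descriptions.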

How the data were processed

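For each of 3 libraries the authors deposited UMI counts by gene and barcode, which were raw whole numbers. The submitters' processing notes name Cell Ranger, Seurat and mm10; versions, annotation, strand setting, ages, doses and times are not stated there. Barcodes below 500 UMIs or 300 genes, or with mitochondrial UMIs above 10%, were dropped. Doublets called with a Scrublet-type score (113, 440 and 376) were removed. Few deposited barcodes exceed 10000 UMIs (9, 3 and 9). Cells of all libraries were clustered together (scanpy 1.11.5, leidenalg 0.10.2; 3000 variable genes without the members and the pathway list, 30 components, 20 neighbours, resolution 1). Clusters were named "X-like" by the median fold of class markers, a score set after the clusters were seen, and 2 of 28 stayed unnamed. Sums of UMIs per class and library gave the levels and ratios. Each group is 1 library, so no test was made. The code was tested on simulated counts. TMM factors from edgeR 4.0.16 served as an alternative scaling.

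The members, marker lists and pathway list were chosen with earlier results of these data known. All members are named, with levels in each compared class except where few UMIs were found. Of the pathway list, up to 3 highest and 3 lowest genes past 1.5-fold are named per comparison in the fibroblast, cardiomyocyte, endothelial and macrophage classes; those for ART/Sham are left out. The most similar genes are the 3 with the highest Pearson r of log2(CPM + 1) among genes reaching 50 CPM in a sum. Positions are those of GENCODE M21 (GRCm38). For measured ratios of members, alternatives covered doublets, clustering, class assignment, depth, scaling and the added count. For the pathway list they covered filters and scaling, so its genes were not recomputed under another class assignment. Leaving out the 51-cell cluster, for members and pathway genes, was an alternative chosen after seeing the data.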

Additional observations from a re-analysis of the deposited data

Results flagged for a closer look

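The values here have opposite directions in 2 classes under the same comparison, each with a counting interval that excludes 0. With 1 library per group the differences between classes were not tested.

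For Igf1, TAC/Sham was 0.53 in pericyte-like and -0.73 in macrophage-like cells, and ART/TAC was 0.69 in macrophage-like and -0.15 in fibroblast-like cells. The pericyte-like TAC/Sham value became 0.091 when cells were assigned by a marker gate. For Igfbp5, ART/TAC was 0.72 in endocardial-like cells (0.17 with the marker gate) and -0.29 in pericyte-like cells. For Igfbp6, TAC/Sham was 1.83 in macrophage-like and -0.95 in endocardial-like cells, and ART/Sham was 2.20 in cardiomyocyte-like and -0.77 in endocardial-like cells. Under the gate both endocardial Igfbp6 values changed sign, and the cardiomyocyte-like one became 0.75.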

How the results depend on the processing

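Of 144 measured ratios of members, 52 were past 1.5-fold. Of these, 44 kept their direction and 35 stayed past 1.5-fold under every alternative run, and of 1461 alternative values 103 moved beyond the main counting interval and 70 changed sign, 8 of them of ratios past 1.5-fold. No paired analysis was possible because each group is 1 library and the labels give no replicate numbers.

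Without the Sham-only macrophage-like cluster, macrophage-like Igf2r became 0.64 for TAC/Sham and 0.62 for ART/Sham. Macrophage-like Igf1 became -0.90 for TAC/Sham and -0.22 for ART/Sham. With cells of at most 8000 UMIs, fibroblast-like Igfbp3 for ART/Sham became -0.0052 (from 0.78), and Igf1 for TAC/Sham 0.30. With the marker gate, endocardial-like Igfbp3 for TAC/Sham became -0.85, Igfbp5 for ART/Sham -0.46 and Igfbp6 0.22 (TAC/Sham) and 0.26 (ART/Sham). The gate also gave macrophage-like Igfbp5 -0.36 for ART/Sham and Igf1 0.89 for ART/TAC, fibroblast-like Igf1 0.57 for TAC/Sham, and cardiomyocyte-like Igf1r -0.047 (TAC/Sham) and 0.083 (ART/TAC). The cause was not tested for these. The ratios of thinned shares of Igf1 and Igf1r that were recomputed at 2000 UMIs stayed within the intervals at 1000 UMIs.

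Counts of pathway genes past 1.5-fold follow how many genes are tested. With no filter beyond 1 UMI in each library they were 6 (endothelial-like, ART/TAC, from 3) and 4 (fibroblast-like, ART/TAC, from 2). Under that setting they were also 12 and 6 (macrophage-like, from 7 and 2) and 17 and 19 (cardiomyocyte-like, from 10 and 11). TAC/Sham stands first in each pair. With at least 400 UMIs they were 4 (endothelial-like, TAC/Sham, from 7) and 2 and 1 (macrophage-like).

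TMM scaling moved the share of higher among all genes past 1.5-fold from 50.5% to 61.0% (fibroblast-like, ART/TAC), 49.0% to 62.4% (macrophage-like, ART/TAC), 49.9% to 62.5% (cardiomyocyte-like, TAC/Sham), 70.6% to 80.9% (endothelial-like, ART/Sham) and 48.5% to 59.0% (lymphatic endothelial-like, ART/TAC).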

Other observations

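Classes too small to compare held part of 2 binding proteins' UMIs. Epicardial-like cells (17 in Sham, none in TAC, 16 in TAC+ART) had 3105 (2766 to 3473) and 4061 (3668 to 4485) CPM of Igfbp5 in Sham and TAC+ART. They held 12.6% and 6.26% of those libraries' Igfbp5 UMIs. Their Igfbp6 levels were 933 (752 to 1145) and 2062 (1784 to 2369.7) CPM, or 13.9% and 9.004% of the Igfbp6 UMIs. Smooth muscle-like cells (18, 5 and 22) had 479.6, 234 and 332 CPM of Igfbp5 and 735, 656 and 987 CPM of Igfbp7, in the order Sham, TAC, TAC+ART.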
